A study of Mus musculus with 8 samples.

Results

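Cyp4 enzymes are cytochrome P450 monooxygenases of the endoplasmic reticulum that hydroxylate fatty acids at or next to the terminal (omega) carbon. The transcripts of 10 mouse Cyp4 genes, Cyp4a10, Cyp4a12a, Cyp4a12b, Cyp4a14, Cyp4a31, Cyp4a32, Cyp4b1, Cyp4f14, Cyp4f15 and Cyp4v3, were examined among the 55487 genes of the count table. The 10 genes were chosen by name with their levels in these same libraries already known. Their differences between the genotype labels are therefore given as a description, with standard errors and without tests. The table holds 27 Cyp4 genes and pseudogenes, and the other 17 are given further down. All 10 genes, and 4 of the other 17, passed the filter on low counts.

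Subcutaneous MC38 tumors, which grow from a mouse colon cancer line carrying green fluorescent protein (GFP), were raised in Bmal1+/+ mice and in Bmal1-/- mice, bred from heterozygous founders. Bmal1 encodes the partner of CLOCK in the circadian activator complex and its deletion here was germline, so by the labels it was carried by every host cell and not by the implanted tumor cells. By the labels, the stromal vascular fraction was sequenced in 4 samples of each genotype. The study describes this fraction as the GFP-negative remainder after cell sorting. The labels give neither the age or sex of the hosts nor the hour of collection. Each sample gave 1 library, with between 14054825 and 18449143 counts, and nothing says which samples share a sort or a day. Replicates are numbered in order within a label, and replicate 4 labelled Bmal1-/- is the sample titled KO6.

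The following features of the libraries touch every value below. Bmal1 transcript was at 0.960 to 2.71 normalized CPM (read counts scaled to library size) in the Bmal1+/+ libraries. It was at 30.1 to 35.01 CPM in those labelled Bmal1-/-, so the deletion label did not go with less of this transcript. Counts per gene do not show whether the transcript was intact, so they cannot check the label. The BMAL1 targets Dbp, Nr1d1 and Nr1d2 were lower in the libraries labelled Bmal1-/- (log2 fold changes -4.32, -3.97 and -3.58). The clock-controlled genes Tef and Hlf had -0.98 and -0.15. The hour of collection is not given, so the levels of these clock-controlled genes cannot check the label either. The libraries are therefore named by label throughout. Xist, the transcript of the inactive X chromosome, was at 844 to 1095 CPM in the Bmal1+/+ libraries and at most 0.749 CPM in the others. The 4 Y-linked genes Ddx3y, Kdm5d, Uty and Eif2s3y had 0 counts in the Bmal1+/+ libraries and summed to 121 to 144 CPM in each library labelled Bmal1-/-. Sex and genotype label thus divide the 8 libraries identically and cannot be told apart. Liver transcripts were abundant in this labelled tumor fraction: 12 hepatocyte markers took 11.1% to 12% of the counts in the Bmal1+/+ libraries and 7.07% to 7.96% in those labelled Bmal1-/-, of which albumin (Alb) was called lower in the latter (log2 fold change -2.10 ± 0.20 SE) and 2 others higher. By comparison, 12 fibroblast and mural cell markers took 0.0151% to 0.0230% and 0.0110% to 0.0118%, and 12 leukocyte markers 0.0156% to 0.0193% and 0.00598% to 0.0154%. Hepatocyte markers thus took far more of every library than these stromal markers, which the name of the fraction does not lead one to expect. Where the liver transcripts came from was not tested. In bulk RNA, fewer cells of a type and less RNA per cell cannot be told apart.

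Omega-hydroxylation starts a minor route of fatty acid breakdown. The omega-alcohol is oxidised to a dicarboxylic acid by alcohol and aldehyde dehydrogenases, and peroxisomal beta-oxidation then shortens it. Cyp4a enzymes take medium- and long-chain fatty acids and arachidonic acid, which they convert to the vasoactive lipid 20-HETE, and Cyp4f enzymes inactivate leukotrienes and other eicosanoids. In the mouse, Cyp4a10 and Cyp4a14 are textbook targets of the fatty acid receptor PPARA in liver, and Cyp4a12a is known as a male-biased gene of liver and kidney.

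Of the 10 genes, 7 lie in a cluster on chromosome 4 of mouse build GRCm38, between positions 115299046 and 115647723, a span of 348.7 kb. Their order is Cyp4a12a, Cyp4a12b, Cyp4a14, Cyp4a10, Cyp4a31, Cyp4a32 and Cyp4b1, and Cyp4a14 and Cyp4b1 are on the minus strand. Cyp4f15 (positions 32685627 to 32703352, plus strand) and Cyp4f14 (positions 32905070 to 32917342, minus strand) are on chromosome 17, and Cyp4v3 (positions 45304944 to 45333216, minus strand) is on chromosome 8. The GENCODE annotation places Gm12837 on the opposite strand within Cyp4a12b, and Gm45753 on the same strand overlapping Cyp4v3. Whether the counting used strand is not stated, so reads of these overlaps cannot be assigned with certainty.

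Within the cluster, a pair and a trio are near-identical, which limits how well short reads separate them. The coding sequences of Cyp4a12a and Cyp4a12b, each of 1524 bases, differed at 23 positions and were 98.5% identical. Those of Cyp4a10, Cyp4a31 and Cyp4a32, each of 1527 bases, differed at 77 positions across the trio, with 97.2% identity between Cyp4a10 and Cyp4a32, 96.6% between Cyp4a10 and Cyp4a31, and 96.0% between Cyp4a31 and Cyp4a32. Of all 100-base windows of the transcript, 35.8% in Cyp4a12a, 12.7% in Cyp4a10, 8.22% in Cyp4a31 and 20.1% in Cyp4a32 occurred unchanged in another Cyp4 transcript, against 0.0% in Cyp4a14, Cyp4f14, Cyp4f15 and Cyp4v3. Cyp4a14 shared no window even at 75 bases. The 60 coding bases within 1 exon at which the trio differed most, in exon 2, are printed below because they show how reads can tell the 3 apart. Capitals mark the 9 positions at which they are not all alike. The stretches lie on chromosome 4, plus strand, at chr4:115519640-115519699, chr4:115565020-115565079 and chr4:115602270-115602329.
Cyp4a10: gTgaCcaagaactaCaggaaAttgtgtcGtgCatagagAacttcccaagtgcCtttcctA
Cyp4a31: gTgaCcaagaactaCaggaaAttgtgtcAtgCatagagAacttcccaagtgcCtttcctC
Cyp4a32: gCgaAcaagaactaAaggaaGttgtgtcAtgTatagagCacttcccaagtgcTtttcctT
The corresponding stretch for the other pair, in exon 6, held 4 differing positions, at chr4:115326628-115326687 and chr4:115432881-115432940.
Cyp4a12a: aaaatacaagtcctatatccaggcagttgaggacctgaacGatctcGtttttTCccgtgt
Cyp4a12b: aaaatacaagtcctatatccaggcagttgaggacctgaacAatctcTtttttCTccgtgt

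The cysteine that holds the heme iron is shared by all P450 enzymes, and the 60 coding bases around its codon show the opposite case. They were the same in Cyp4a10, Cyp4a31 and Cyp4a32, and the same in Cyp4a12a and Cyp4a12b. Compared with Cyp4a10, the Cyp4a12 pair differed at 4 bases, Cyp4a14 at 8, Cyp4b1 at 13, Cyp4f14 at 16, Cyp4f15 at 17 and Cyp4v3 at 21. In each gene the stretch is joined from the end of 1 exon and the start of the next, so it is a transcript sequence and not a genomic run. Capitals mark bases that differ from Cyp4a10.
Cyp4a10: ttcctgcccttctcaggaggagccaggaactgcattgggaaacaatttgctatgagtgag
Cyp4a12a: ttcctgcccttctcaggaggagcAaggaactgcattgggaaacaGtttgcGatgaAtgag
Cyp4a14: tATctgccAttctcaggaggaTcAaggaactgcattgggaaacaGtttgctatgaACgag
Cyp4b1: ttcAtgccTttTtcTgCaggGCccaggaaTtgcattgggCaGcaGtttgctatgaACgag
Cyp4f14: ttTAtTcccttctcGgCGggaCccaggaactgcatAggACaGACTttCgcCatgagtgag
Cyp4f15: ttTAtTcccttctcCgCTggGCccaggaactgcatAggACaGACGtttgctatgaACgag
Cyp4v3: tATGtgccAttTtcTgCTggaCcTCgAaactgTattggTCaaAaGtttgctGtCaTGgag

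Levels of different genes were compared in FPKM, the authors' values scaled to gene length and library size. Among the Bmal1+/+ libraries the order of mean FPKM was Cyp4a14 (260.4 ± 61.1, SD, n = 4), Cyp4a10 (225 ± 48.7), Cyp4v3 (118 ± 6.57), Cyp4f15 (60.1 ± 7.20), Cyp4f14 (58.1 ± 6.73), Cyp4a32 (12.99 ± 1.63), Cyp4b1 (7.95 ± 0.646), Cyp4a31 (3.27 ± 0.878) and then the Cyp4a12 pair at the detection floor. The ranges of Cyp4a14 and Cyp4a10 overlapped, as did those of Cyp4f15 and Cyp4f14, and all other neighbours in this order were apart. In the libraries labelled Bmal1-/- the order was Cyp4v3 (169 ± 62.4), Cyp4f14 (66.5 ± 13.7), Cyp4f15 (60.05 ± 10.1), Cyp4a12a (30.3 ± 15.3), Cyp4a12b (29.4 ± 15.5), Cyp4a32 (26.7 ± 13.8), Cyp4a10 (20.7 ± 14.5), Cyp4a14 (13.3 ± 8.75), Cyp4b1 (6.17 ± 0.686) and Cyp4a31 (3.62 ± 2.24). Here every pair of neighbours overlapped in range.

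The make-up of Cyp4 transcript therefore differed with the label. Cyp4a10 and Cyp4a14 together held 58.9% to 70.8% of the summed FPKM of the 10 genes in the Bmal1+/+ libraries and 1.499% to 12.2% in those labelled Bmal1-/-. Cyp4v3 held 14.2% to 18.8% and 34.0% to 43.3%, and the Cyp4a12 pair at most 0.0317% and between 9.83% and 18.1%. The summed FPKM of all 10 genes was 747 ± 114 (SD, n = 4) in the Bmal1+/+ libraries and 426 ± 134 (SD, n = 4) in the others, so the shares are parts of a smaller total in the latter.

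**Figure D1:**
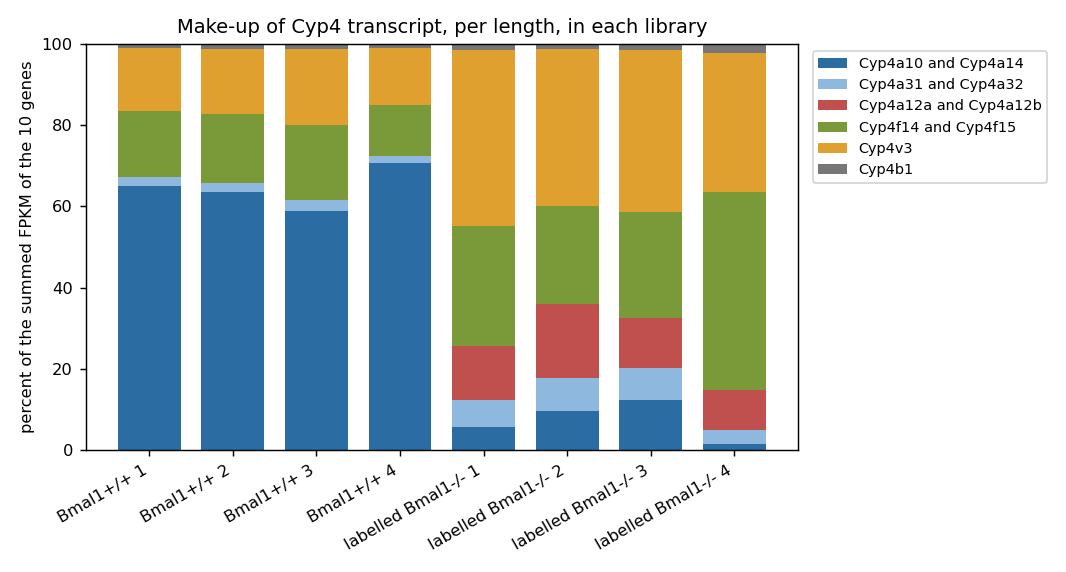
Stacked bars give the percent of the summed FPKM of the 10 Cyp4 genes that each gene or pair held in each of the 8 libraries (vertical axis from 0 to 100%). Cyp4a10 and Cyp4a14 filled at least 58.9% of each Bmal1+/+ bar and at most 12.2% of each bar labelled Bmal1-/-, where Cyp4v3, Cyp4f14, Cyp4f15 and the Cyp4a12 pair made up most of the rest.

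In the fit over all 14353 genes that passed the filter, 31.1% of genes had an adjusted p below 0.05 (16.2% lower and 14.9% higher under the Bmal1-/- label). Of the 10 Cyp4 genes, 3 were called lower (Cyp4a10, Cyp4a14, Cyp4b1) and 2 higher (Cyp4a12a, Cyp4a12b). Since the genes were selected on this contrast, nothing is read from that count or from any single call among the 10. The Cyp4a12 pair, with at most 5 counts in any Bmal1+/+ library, passed the filter only through the libraries labelled Bmal1-/-. Without replicate 4 labelled Bmal1-/-, Cyp4a32 and Cyp4v3 were also called, which made 4 higher. The same 5 were the genes whose libraries did not overlap between labels in normalized CPM, as was the case for 33.4% of all genes tested. By the study's own rule, a fold change over 2 with an unadjusted p below 0.05, 14.1% of all genes were called.

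**Figure D2:**
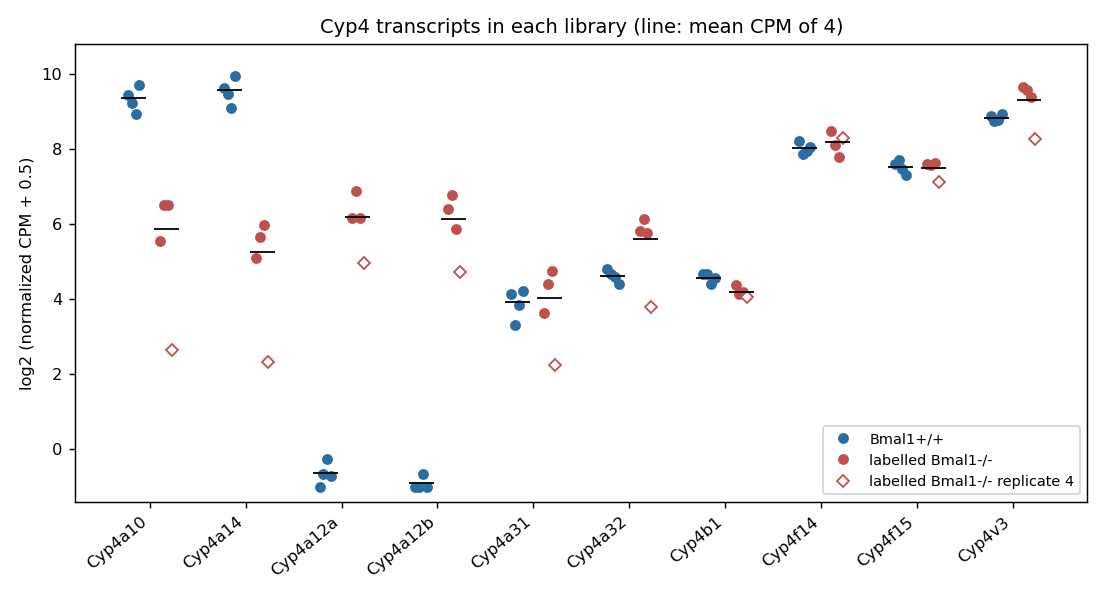
Each point is 1 library, with log2 of normalized CPM plus 0.5 on the vertical axis, 4 Bmal1+/+ libraries in blue and 4 labelled Bmal1-/- in red, and a line at the mean CPM of 4. The labels are apart for Cyp4a10, Cyp4a14, Cyp4a12a, Cyp4a12b and Cyp4b1, and the open diamond (labelled Bmal1-/- replicate 4) is the lowest of its label for each gene but Cyp4f14.

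Cyp4a14 had 787, 702, 547 and 990.2 normalized CPM in Bmal1+/+ replicates 1 to 4, and 33.5, 50.1, 61.8 and 4.54 CPM in the 4 libraries labelled Bmal1-/-. Every Bmal1+/+ library lay above every library of the other label. The log2 fold change was -4.33 (SE 0.64), and the mean was 757 ± 185 CPM (SD, n = 4) against 37.5 ± 24.9 CPM (SD, n = 4), a 20.2-fold difference. Cyp4a14 is a fatty acid hydroxylase known to be induced in liver by fasting and by PPARA ligands.

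Cyp4a10, the next Cyp4 gene on the chromosome and a close functional relative, had 699.6, 593, 488 and 829 CPM in Bmal1+/+ replicates 1 to 4. Its levels were 46.1, 90.7, 91.2 and 5.70 CPM in replicates 1 to 4 labelled Bmal1-/-. The labels did not overlap, and replicate 4 again stood far below the other 3. The log2 fold change was -3.48 (SE 0.67), from means of 652 ± 146 CPM and 58.4 ± 41.0 CPM (SD, n = 4 each).

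Both genes followed one another from library to library. The ratio of Cyp4a10 to Cyp4a14 in FPKM was 0.839 to 0.895 in the Bmal1+/+ libraries. It was 1.26 to 1.81 in the libraries labelled Bmal1-/-, where Cyp4a10 was thus the more abundant of the 2 per length. The ratios of the labels did not overlap.

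Cyp4a12a encodes the principal 20-HETE synthase of mouse kidney vessels and Cyp4a12b its near-identical neighbour. The raw counts of Cyp4a12a in Bmal1+/+ replicates 1 to 4 were 0, 2, 5 and 2, and those of Cyp4a12b were 0, 0, 2 and 0. Such counts are at or near the floor of 3 counts per library, which corresponds to 0.167 to 0.202 CPM and covers counting error only. In the libraries labelled Bmal1-/-, Cyp4a12a was at 70.6, 117, 71.1 and 30.4 CPM and Cyp4a12b at 84.4, 108, 57.9 and 26.1 CPM.

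Over the 4 libraries of each label the summed counts were 9 and 4268 for Cyp4a12a and 2 and 4115 for Cyp4a12b. The ratio of these sums, scaled to library size, was 521 for Cyp4a12a with a 95% exact counting interval from 274 to 1140. That for Cyp4a12b was 2260, with an interval from 625 to 18668. The interval of the pair summed ran from 468 to 1678. These intervals leave out the spread between samples, and the fitted log2 fold changes of 8.94 and 10.799 became 8.08 and 8.76 with a prior count of 2, so they are no measure of size at such low counts. In each library labelled Bmal1-/- both genes were counted, with an FPKM ratio of Cyp4a12b to Cyp4a12a from 0.823 to 1.21. Because of their shared windows the split between them is uncertain. Their sum does not depend on that split, but how reads that match both genes were counted is not stated. The presence of the pair coincided with Y-linked transcripts in each of the 4 libraries, so whether sex or genotype accompanies it cannot be told apart in this design.

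Cyp4a32 was at 27.1, 25.2, 23.4 and 20.6 CPM in Bmal1+/+ replicates 1 to 4 and at 55.3, 70.3, 53.5 and 13.4 CPM in the libraries labelled Bmal1-/-. Of the latter, 3 lay above and replicate 4 below every Bmal1+/+ library. Its log2 fold change of 1.00 ± 0.39 (SE) was 1.31 (SE 0.14) without that replicate. Cyp4a31 was at 17.2, 9.48, 14.0 and 18.0 CPM against 11.9, 20.8, 26.6 and 4.27 CPM, which overlapped, with libraries labelled Bmal1-/- at both ends and a log2 fold change of 0.11 ± 0.45 (SE). Both are members of the Cyp4a10 subgroup about which little function is established.

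The direction of Cyp4a32 was thus opposite to that of Cyp4a10, the gene with which it shares 97.2% of its coding bases. The FPKM ratio of Cyp4a32 to Cyp4a10 was 0.0388 to 0.0747 in the Bmal1+/+ libraries and 0.915 to 3.66 in those labelled Bmal1-/-. With the counts of Cyp4a10, Cyp4a31 and Cyp4a32 summed, the log2 fold change was -2.50. The split of counted reads within the trio does not enter this sum. How reads that match more than 1 of these genes were counted is not stated. In the Bmal1+/+ libraries Cyp4a31 and Cyp4a32 together made up 14.9 to 18.8 of the 188 to 297 FPKM of the trio.

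Cyp4b1, at the end of the cluster, is best known from lung, where it activates the plant toxin ipomeanol. Its levels were 24.98, 24.7, 20.7 and 23.0 CPM in Bmal1+/+ replicates 1 to 4 and 20.1, 17.2, 17.6 and 16.1 CPM in the other label. The labels were apart by a small margin, 20.7 against 20.1 CPM, with a log2 fold change of -0.39 ± 0.11 (SE). This fold change was -0.36 without Bmal1+/+ replicate 1, and -0.37 without Bmal1+/+ replicate 2 or without replicate 2 labelled Bmal1-/-. Of 6 lung epithelium markers, 4 (Scgb1a1, Scgb3a2, Sftpc, Sftpb) had 0 counts in every library, and all 6 together took at most 0.00102% of counts. Of 10 kidney tubule markers, 5 (Kap, Slc22a6, Slc22a12, Aqp2, Slc12a1) had 0 counts in every library and none passed the filter. All 10 together took 2.17e-05% to 6.82e-05% of counts in the Bmal1+/+ libraries and 8.63e-05% to 2.28e-04% in the others, which did not overlap and was higher under the same label as the Cyp4a12 pair. Lrp2, one of these markers, had 2 to 4 counts against 6 to 24. The part of kidney transcripts in the Cyp4a12 values was not tested.

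**Figure D3:**
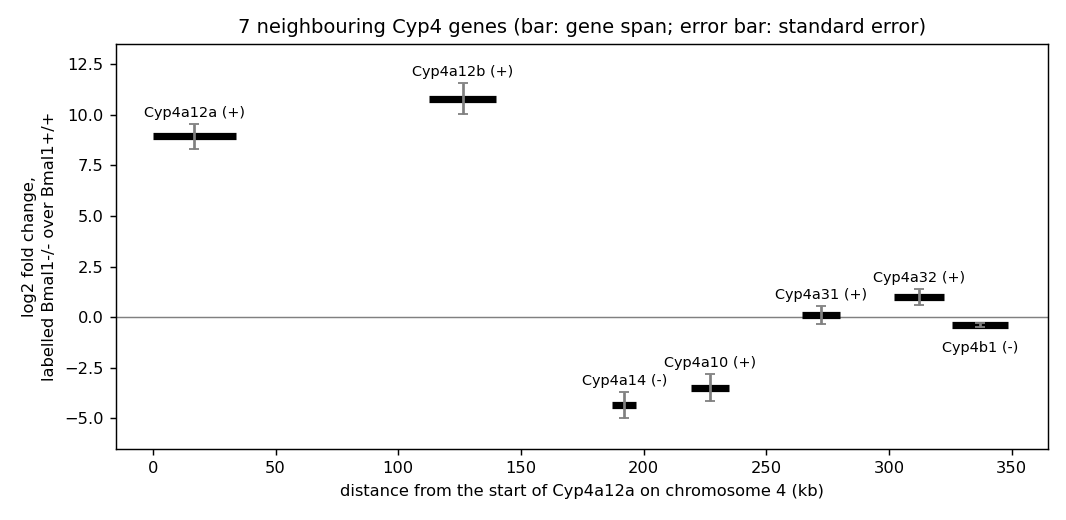
Fitted log2 fold change (libraries labelled Bmal1-/- over Bmal1+/+, vertical axis) of the 7 neighbouring genes against distance in kb from the start of Cyp4a12a, with gene spans as bars, standard errors as whiskers and the strand in brackets. The Cyp4a12 genes are above 0 and Cyp4a14 and Cyp4a10 below 0, while Cyp4a31, Cyp4a32 and Cyp4b1 lie between -0.39 and 1.00.

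Cyp4f14, a liver hydroxylase of leukotriene B4 and of vitamin E side chains, was at 294, 233, 245 and 263 CPM in Bmal1+/+ replicates 1 to 4. The libraries labelled Bmal1-/- had 358, 273, 221 and 312 CPM. Its log2 fold change was 0.17 (SE 0.16), and it was the one gene of the 10 in which replicate 4 was not the lowest library of its label. Cyp4f15, which is 79.1% identical to Cyp4f14 in protein sequence, was at 192, 209, 176 and 157 CPM against 193, 191, 196 and 139 CPM, with a log2 fold change of -0.03 ± 0.14 (SE). Neither gene showed a difference beyond the spread of its libraries.

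Cyp4v3 is the mouse counterpart of human CYP4V2, a hydroxylase of medium-chain and polyunsaturated fatty acids whose loss causes a crystalline dystrophy of the retina. It was at 467, 432, 439.8 and 484 CPM in Bmal1+/+ replicates 1 to 4, the tightest group of values among the 10 genes. The libraries labelled Bmal1-/- had 805, 762, 667 and 309 CPM, with 3 libraries above and replicate 4 below all Bmal1+/+ libraries. The log2 fold change was 0.48 (SE 0.26) over all 8 libraries and 0.71 (SE 0.11) without replicate 4.

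Promoter sequences from RefSeq (250 bases before to 50 after each start, build GRCm38.p6) were at hand for 5 of the 10 genes, Cyp4a32, Cyp4b1, Cyp4f14, Cyp4f15 and Cyp4v3. They were searched on both strands for the E-box CACGTG bound by BMAL1 and CLOCK, the D-box TTANGTAA, the PPARA-type direct repeat AGGNCANAGGNCA and the STAT5-type motif TTCNNNGAA. Cyp4v3 held 1 E-box, found in 7.15% of all 32851 RefSeq mouse promoters, and Cyp4b1 held 1 STAT5-type match, found in 8.30%, so no matches overlapped. The D-box (2.32% of promoters) and the direct repeat (0.381%) had no match in the 5 genes. A match is a run of letters and not a binding site. The upstream 150 bases of the Cyp4v3 promoter, minus strand at chr8:45333264-45333413, are printed as the one stretch with a clock-type motif, with the E-box in capitals, 171 to 166 bases before the start.
Cyp4v3 promoter: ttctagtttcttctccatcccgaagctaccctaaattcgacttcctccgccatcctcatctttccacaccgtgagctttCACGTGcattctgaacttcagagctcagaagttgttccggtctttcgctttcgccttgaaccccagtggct

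Replicate 4 labelled Bmal1-/- was the lowest of its label for 9 of the 10 genes and the lowest of all 8 libraries for 7. The mean of the other 3 libraries of its label exceeded it 13.3-fold for Cyp4a10, 10.7-fold for Cyp4a14, 4.62-fold for Cyp4a31, 4.47-fold for Cyp4a32 and 2.41-fold for Cyp4v3. The corresponding values were 2.84-fold for Cyp4a12a and 3.20-fold for Cyp4a12b, but 1.13-fold for Cyp4b1 and 0.911-fold for Cyp4f14. In the same library 11 acute-phase genes took 6.50% of all counts, against 1.00% to 1.21% in the other 3 and 0.700% to 0.953% in the Bmal1+/+ libraries. Saa1, the serum amyloid of the acute-phase response, reached 7751 CPM there, while the other 3 libraries of the label had 17.7 CPM or less. Leukocyte markers took 0.0154% of its counts, against 0.00598% to 0.00859% in the other 3, and 8 epithelial tumor markers 0.0367%, against 0.0241% to 0.0262%. Hepatocyte markers, at 7.96% of counts, were not lower in that library than in the other 3. That list shares 1 gene, Fgb, with the acute-phase list, so its share is not separate from the acute-phase share. The part of these acute-phase, leukocyte and epithelial transcripts in the low Cyp4a values was not tested. Without this library, Cyp4a10 and Cyp4a14 had log2 fold changes of -3.10 (SE 0.29) and -3.96 (SE 0.28).

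Of the 10 genes, Cyp4a10 varied most within a label (pooled SD of log2 CPM 1.32). The genes most like it were therefore sought by the root-mean-square difference between deviations of log2 CPM (0.5 CPM added) from the mean of the label, over the 8 libraries, among the 8161 genes that averaged 10 CPM or more. Cyp4a14 was the nearest, at 0.15 on the log2 scale. It was followed by Acot1 (0.33), an acyl-CoA thioesterase, Acaa1b (0.37), a peroxisomal thiolase, Ces1d (0.44), a carboxylesterase, and Car3 (0.44), a carbonic anhydrase. All 6 deviated downward most in replicate 4 labelled Bmal1-/-, the library with their largest deviations, so the measure rests largely on that library. The differences between labels varied among these genes. Cyp4a14 had a log2 fold change of -4.33 (SE 0.64) and Ces1d -3.14 ± 0.51 (SE), against -3.48 for Cyp4a10. Acaa1b had -1.24 (SE 0.47), Acot1 -0.64 (SE 0.50) and Car3 -0.10 (SE 0.71).

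**Figure D4:**
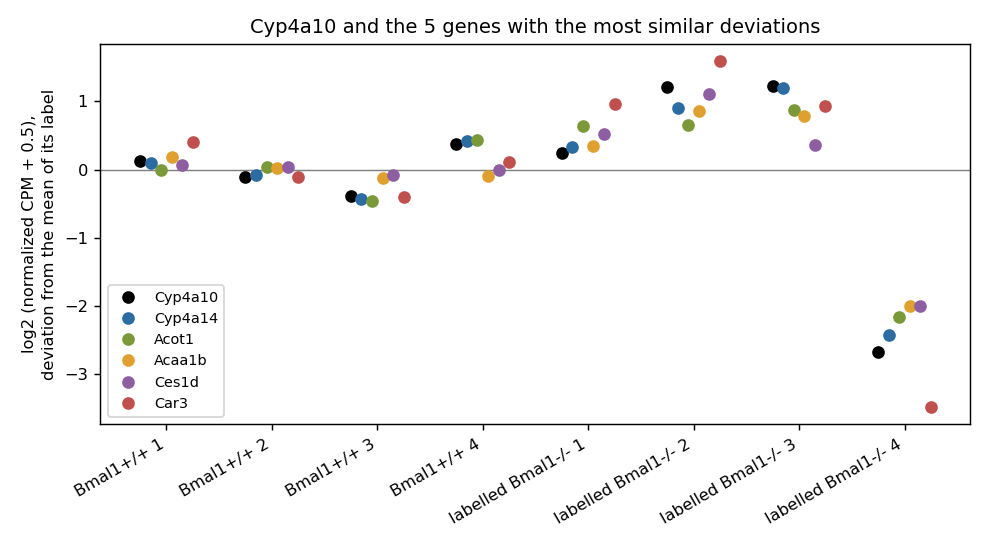
Points give the deviation of log2 normalized CPM (0.5 added) from the mean of its label, in each of 8 libraries, for Cyp4a10 and the 5 genes with the smallest root-mean-square difference from it. The 6 genes stay between -0.47 and 0.44 in the Bmal1+/+ libraries and drop to between -3.48 and -1.998 in replicate 4 labelled Bmal1-/-.

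Among the other 17 Cyp4 genes and pseudogenes, 4 passed the filter. Cyp4f17 was at 15.3, 8.64, 4.50 and 7.63 CPM in Bmal1+/+ replicates 1 to 4 and at 22.8, 24.3, 30.1 and 21.2 CPM in the libraries labelled Bmal1-/-, without overlap. It rose by 1.44 on the log2 scale (SE 0.31, edgeR quasi-likelihood, adjusted p = 0.0063). Cyp4f16 was at 3.97, 3.27, 3.63 and 3.12 CPM against 1.25, 1.32, 0.783 and 3.19 CPM, with a log2 fold change of -1.09 (SE 0.37, edgeR quasi-likelihood, adjusted p = 0.048).

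The Cyp4f16 call was not kept when any 1 Bmal1+/+ library, or replicate 1, 2 or 3 labelled Bmal1-/-, was left out, with adjusted p between 0.072 and 0.11. Without replicate 4 labelled Bmal1-/- it was -1.63 (edgeR adjusted p = 0.0014). Cyp4f13, next to Cyp4f14 on chromosome 17, had 45.5 to 51.1 CPM and 45.4 to 70.4 CPM, with a log2 fold change of 0.38 (adjusted p = 0.066). That became 0.50 (adjusted p = 0.0054) without the same replicate. Cyp4f18, known from neutrophils, had 0.806 to 1.22 CPM and 0.213 to 1.09 CPM (log2 fold change -0.52, adjusted p = 0.38). The other 13 were not tested. Cyp4f39 had counts of 4, 0, 0 and 3 against 5, 7, 13 and 17, Cyp4f41-ps had 2 to 6 counts in each library, and Cyp4x1, Cyp4x1os, Cyp4f37, Cyp4f40 and Cyp4b1-ps2 had at most 2. Another 6, Cyp4a28-ps, Cyp4a29, Cyp4a29-ps1, Cyp4a30-ps, Cyp4a30b and Cyp4b1-ps1, had 0 counts in every library.

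P450 enzymes receive their electrons from NADPH through the reductase POR, and the products of omega-hydroxylation pass to dehydrogenases, acyl-CoA thioesterases and peroxisomal enzymes. Of 34 such partner genes, all of which were tested, 15 fell and 1 rose under the Bmal1-/- label, beside 16.2% lower and 14.9% higher over all genes. Their median log2 fold change was -0.62, against 0.02 over all genes. This list and the lists below were chosen with earlier results of these data known. Their counts are therefore a description and no independent evidence about a pathway. Por fell from 803 to 1332 CPM in the Bmal1+/+ libraries to 101 to 192 CPM, by 2.75 on the log2 scale (SE 0.24, edgeR quasi-likelihood, adjusted p = 4.5e-05). Aldh3a2, the fatty aldehyde dehydrogenase that completes omega-oxidation, fell from between 533 and 703 CPM to between 66.2 and 115 CPM, by 2.72 (SE 0.21, edgeR adjusted p = 2.3e-05).

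Abcd2, a peroxisomal transporter of very-long-chain acyl-CoA, had 61.7 to 92.9 CPM and 0.970 to 2.44 CPM and fell by 5.83 (adjusted p = 1.3e-06). The peroxisomal thioesterases Acot4 and Acot3 fell by 3.73 (adjusted p = 8.4e-06) and fell by 7.88 (adjusted p = 1.3e-05), both from the same edgeR test. Acot3 had no counts in replicate 4 labelled Bmal1-/-, so its fitted size depends on the prior count. Of these 5 partners, Aldh3a2 (66.2 CPM), Acot4 (18.3 CPM) and Acot3 were lowest of their label in replicate 4, as the Cyp4a genes were, and Por (182 CPM) and Abcd2 (2.44 CPM) were not. The one partner that rose was Adh4, a class II alcohol dehydrogenase (0.82, adjusted p = 0.013), named after its value was seen.

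Other PPARA target genes were counted in the same way. Of 32 listed, with Cyp4a10 and Cyp4a14 left out, 31 were tested, and 15 fell by edgeR's quasi-likelihood test (16 by DESeq2). Over all genes 16.2% were lower and 14.9% higher. By either tool 0 of the 31 rose, and 0 were higher at an unadjusted p below 0.05 in edgeR. Their median log2 fold change was -0.65. The list shares 6 genes with the partners above, Acot3, Acot4 and Aldh3a2 among them, so the counts are not separate. Beside those, the carnitine transporter Slc22a5 fell by 1.58 (SE 0.15, edgeR quasi-likelihood, adjusted p = 7e-05) and the monoglyceride lipase Mgll by 1.02 (SE 0.11, edgeR adjusted p = 1.3e-04). The other 16 did not pass, and Fgf21 was not tested.

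Of 22 regulators listed for these genes, 11 fell and 4 rose, against 16.2% and 14.9% of all genes. Ppara itself was at 164 to 227 CPM in the Bmal1+/+ libraries and at 72.4 to 148 CPM in the others and fell by 0.91 (SE 0.24, edgeR quasi-likelihood, adjusted p = 0.017). Ppard rose by 2.52 (SE 0.23, edgeR adjusted p = 6.2e-05), from 10.4 to 15.7 CPM to 44.6 to 96.5 CPM, and Rxra, the common partner of both, had a log2 fold change of -0.04 (adjusted p = 0.83). The clock-controlled PAR bZIP factor Dbp fell by 4.32 (adjusted p = 4.1e-06) and Tef by 0.98 (adjusted p = 9.7e-04), while Hlf had -0.15 (adjusted p = 0.64), all from the same edgeR test.

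The REV-ERB receptors Nr1d2 and Nr1d1 fell by 3.58 (adjusted p = 1.3e-06) and fell by 3.97 (adjusted p = 5.4e-06). Of genes known for sex-biased liver expression, the female-biased repressor Cux2 had 60.3 to 84.0 CPM in the Bmal1+/+ libraries and 0.204 to 0.874 CPM in the others and fell by 7.39 (adjusted p = 8.5e-07). The male-biased repressor Bcl6 rose by 2.51 (adjusted p = 1.4e-04), from 10.7 to 22.2 CPM to 67.6 to 129 CPM. These adjusted p-values are from edgeR, over all genes.

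**Figure D5:**
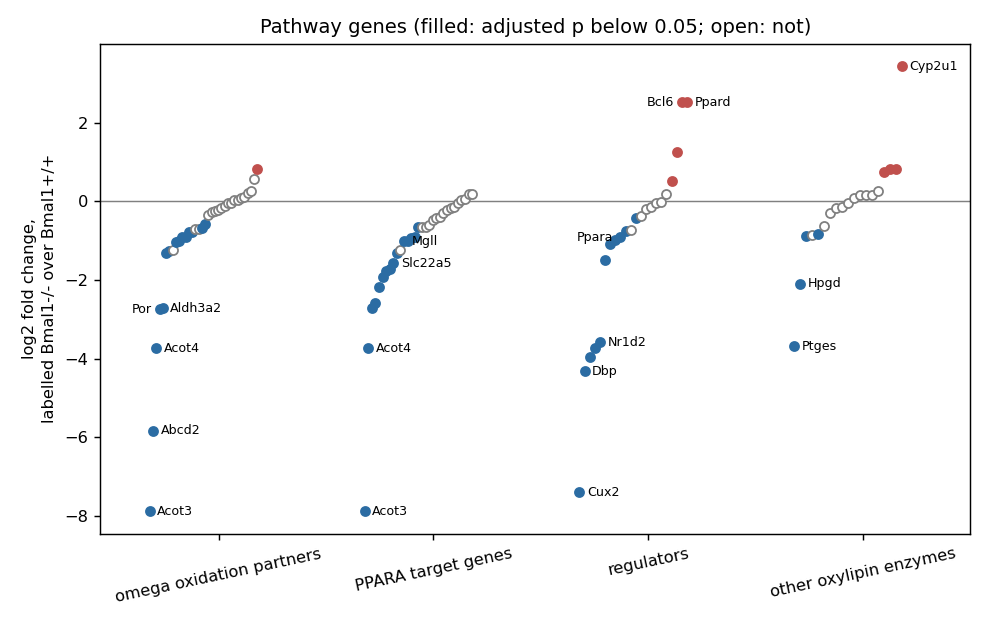
Each point is the log2 fold change (libraries labelled Bmal1-/- over Bmal1+/+) of 1 tested gene in 4 lists: omega oxidation partners, PPARA target genes, regulators and other oxylipin enzymes. Filled points have adjusted p below 0.05, blue for lower and red for higher, and in the first 2 lists 15 points each are blue, with 1 and 0 red.

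Among other enzymes of arachidonic acid and oxylipin metabolism, of 23 listed, 19 were tested, 4 fell and 4 rose, with a median log2 fold change of -0.05. These counts are near the 16.2% lower and 14.9% higher of all genes and are no result about the list. Cyp2u1, another long-chain fatty acid hydroxylase, rose by 3.43 (SE 0.21, edgeR quasi-likelihood, adjusted p = 5.3e-06), from 1.55 to 2.28 CPM to 17.6 to 29.4 CPM. The epoxygenases Cyp2j6 and Cyp2j9 rose by 0.74 (adjusted p = 0.0048) and 0.82 (adjusted p = 0.0069), and Hpgd, which inactivates prostaglandins, fell by 2.09 (adjusted p = 2.1e-05), from the same edgeR test. Ptges, a prostaglandin E synthase at 0.873 to 1.39 CPM in the Bmal1+/+ libraries and at most 0.204 CPM in the others, fell by 3.68 (adjusted p = 7.2e-04), a fitted size that depends on the prior count.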

How the data were processed

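RNA labelled as the stromal vascular fraction was sequenced in 4 Bmal1+/+ and 4 Bmal1-/- samples, grouped by their genotype label. That this fraction was GFP-negative is the study's description. The authors mapped reads to GRCm38 with HISAT2 and counted them with StringTie per the study's methods, whereas the submitters' processing notes name CASAVA 1.8 and TopHat2 2.0.6. The authors deposited whole-number counts per gene, not normalized, and FPKM values, which are scaled to library size and gene length. Library totals were 14054825 to 18449143 counts, and a floor of 3 counts covers counting error only. No pair of libraries of a label was a duplicate (chi-square per degree of freedom at least 18.0). Replicates may come from separate mice, but this is not stated for each sample, and p-values measure the spread between these samples.

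From the counts, normalized CPM, log2 fold changes and standard errors were obtained from edgeR 4.0.16 under R 4.3.3. Low genes were removed by filterByExpr, libraries scaled by TMM, and genes fitted by quasi-likelihood with a prior count of 0.125, with Benjamini-Hochberg adjustment over all 14353 genes tested. The script was tested on simulated data. DESeq2 1.42.0, limma 3.58.1 and other settings were alternatives, and limma on log2 of FPKM plus 0.1 was added after the data were seen. Symbols were matched for 99.4% of gene identifiers. Coding sequences are from GENCODE on GRCm38. The 10 genes and all gene lists were chosen with earlier results of these data known. The text names the 10 genes, all other Cyp4 genes, the 5 genes of each pathway list with the lowest adjusted p, the preset regulators Ppara, Rxra, Dbp, Tef, Hlf and Bcl6 (another is not reported here), and the 5 genes most like Cyp4a10.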

Additional observations from a re-analysis of the deposited data

Results flagged for a closer look

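Cyp4f15 in replicate 4 labelled Bmal1-/- stood apart from the other 3 libraries of its label, at 139 normalized CPM against 191 to 196 CPM, a gap of 0.919 of the whole range of the 4 libraries, above Dixon's 95% critical value for 4 samples. It was the 1 such value among 26 groups of 4 examined (the 10 genes and the 4 other tested Cyp4 genes, leaving out the 2 groups with no value of 1 CPM or more), and chance flags about 1 group in 20. Replicate 4 was also the lowest of its label for Cyp4a10, Cyp4a14, Cyp4a12a, Cyp4a12b, Cyp4a31, Cyp4a32, Cyp4b1 and Cyp4v3. In Cyp4f15 the other 3 libraries had 193 ± 2.37 CPM (SD, n = 3). Acute-phase genes took 6.50% of the counts of that library, and their part in this value was not tested.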

How the results depend on the processing

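Under another scaling, test, filter or prior count, or without 1 library, Cyp4a10 stayed between -4.06 and -3.10 on the log2 scale. Cyp4a14 stayed between -4.82 and -3.96. Calls of the 10 genes are listed here only to show what a setting changed, since the genes were chosen on this contrast. No setting moved the median of all genes by over 0.1. The call of Cyp4b1 was lost without Bmal1+/+ replicate 1 (-0.36) or 2 (-0.37) or replicate 2 labelled Bmal1-/- (-0.37). Cyp4a31, never called, turned to -0.15 with limma-voom, -0.094 with limma on log2 FPKM, -0.073 with the replicate block, and -0.05, -0.04 and -0.27 without Bmal1+/+ replicate 2 and replicates 2 and 3 labelled Bmal1-/-, its range with 1 library left out being -0.27 to 0.43. Cyp4f15, also not called, turned to 0.03 and 0.077 without Bmal1+/+ replicate 2 and replicate 4 labelled Bmal1-/- (range -0.11 to 0.08). Cyp4a32 (DESeq2, 0.99) and, without replicate 4 labelled Bmal1-/-, Cyp4a32 (1.31), Cyp4v3 (0.71) and Cyp4f13 (0.50) became called. The summed Cyp4a12 pair had 9.64. Requiring 10 counts in every sample left the 10 genes with 0 higher calls, since the Cyp4a12 pair was then not tested, and leaving out 1 library gave 2 to 4. Among the other Cyp4 genes, lower calls went from 1 to 0 with no filter and with the replicate block, and to between 0 and 1 without 1 library, and higher calls to 2 with no filter (Cyp4f39 was added) and to between 1 and 2 without 1 library. Partner genes that rose were 2 with DESeq2 and 1 to 2 without 1 library. Oxylipin enzymes that fell were 2 to 5 without 1 library. By the study's rule (fold over 2, unadjusted p below 0.05), all genes gave 1250 lower and 776 higher, against 2322 and 2135 by adjusted p, partners 0 higher, regulators 7 lower, and oxylipin enzymes 2 lower and 1 higher. The cause was not tested for the other changes. In their titles the labels share the numbers 1 to 3 only, since replicate 4 labelled Bmal1-/- is titled KO6. Samples of the same replicate number deviated together with correlations of -0.10 to 0.06 only, and nothing says that the numbers pair the samples. The replicate block, in which the replicates 4 are matched by order alone, changed no other count by over 1.5 times. Fewer than 10 counts in the Bmal1+/+ libraries limit the Cyp4a12 folds.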
